A study of Mus musculus with 6 samples.

Results

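This report describes 42 genes whose transcripts were more abundant when the histone chaperone CAF-1 was depleted, and were not raised to the same degree when the factor HOXA9 was switched off. They were chosen on the measured values, out of 34199 gene symbols counted. A gene was taken when it had at least 1 CPM (reads of the gene for every 1000000 reads counted over all genes of the library) in both CAF-1 OFF libraries, when its lower CAF-1 OFF value was at least 2 times its higher control value, and when its higher HOXA9 OFF value was at most 1.5 times its higher control value. Symbols that start with Hist, H1f, Raet1, H60 or Cxcl were left out, which removed only H1fx and did not touch H3f3b. These 42 genes were 0.385% of the 10902 genes at 1 CPM or more in both CAF-1 OFF libraries. Because all 6 libraries entered the choice, the levels and fold changes of these genes are given as a description, with no test.

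The cells were immortalized granulocyte-macrophage progenitors (iGMPs) from the bone marrow of C57Bl/6 mice that carry a Lys-GFP reporter. They are held in self-renewal by ER-HoxA9, a HOXA9 protein fused to a mutant estrogen receptor domain that is active in the presence of β-estradiol. In the CAF-1 OFF cells, 500 µM IPTG induced a short hairpin RNA against Chaf1b for 24 h while estradiol was kept at 150 ng/ml. Control cells received IPTG for the same 24 h and kept estradiol, and in HOXA9 OFF cells estradiol had been washed out for 24 h. All groups share the ER-HoxA9 transgene, the strain and a medium with stem cell factor. The hairpin lines were derived as clones, and the labels do not say which clone gave which library or whether HOXA9 OFF cells received IPTG, so a difference between clones and an effect of the hairpin cannot be told apart here. Each group has 2 libraries, and the labels do not say whether they came from separate cultures.

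CAF-1 places newly made histones H3 and H4 on DNA behind the replication fork, and Chaf1b encodes its middle subunit. Nucleosomes set down in this way cover new DNA and help to keep genes of other cell types closed to transcription factors. Granulocyte-macrophage progenitors are short-lived precursors of neutrophils and monocytes.

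Between 16773560 and 25170898 reads were assigned to genes in a library, so that 1 CPM stood for 16.8 to 25.2 reads. Chaf1b, the target of the hairpin, had 17.9 and 12.4 CPM in CAF-1 OFF against 91 and 108 CPM in control and 61.6 and 59.7 CPM in HOXA9 OFF. The fitted log2 difference of CAF-1 OFF from control was -2.71 with an SE of 0.20 (quasi-likelihood test of edgeR, FDR 0.0198), and ± after a log2 fold change below is an SE. The FDR was 0.0505 without the second CAF-1 OFF library and 0.115 without either control library, so Chaf1b then missed the threshold, with log2 differences of -2.44 to -2.81. Chaf1b was also called lower in HOXA9 OFF than in control (log2 difference -0.63, edgeR FDR 0.0396), a call lost with a replicate block (FDR 0.0566). Without either control library that log2 difference was -0.75 or -0.51. Chaf1a, the large CAF-1 subunit, had 102 and 105 CPM in CAF-1 OFF against 119 and 103 CPM in control. All 10 of 10 progenitor markers, Mpo, Cd34 and Kit among them, had at least 1 CPM in both libraries of every group, and their summed level was 16841 to 18395 CPM in CAF-1 OFF, 12860 to 15771 in control and 12125 to 14773 in HOXA9 OFF.

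The 42 genes are known from several tissues. They included skin transglutaminases (Tgm3, Tgm1), proteins of the matrix (Mmp8, Col4a2), a replacement histone (H3f3b) and genes of nerve cells (Tub, Shank3, Dab1). Others are best known from lymphocytes (Gimap4, Dntt), vessels (Flt1, Procr) or liver (Hnf4a, Apoa2, Fbp1). Most were scarce. Their median level was 5.15 CPM in CAF-1 OFF, 1.14 CPM in control and 0.698 CPM in HOXA9 OFF, and 31 of the 42 stayed under 10 CPM in both CAF-1 OFF libraries. In 17 genes both controls were under 1 CPM. Their summed level was 1894 and 2440 CPM in CAF-1 OFF against 706 and 653 CPM in control and 555 and 540 CPM in HOXA9 OFF. H3f3b and Mmp8 supplied most of this sum. Without them the sum was 431 and 537 CPM in CAF-1 OFF against 116 and 89.7 CPM in control and 66.9 and 62.9 CPM in HOXA9 OFF. Summed markers of some other blood cells also lay over the controls in both CAF-1 OFF libraries. Of 4 mast cell and basophil markers 3 had at least 1 CPM in every library, and the 4 summed to 234 to 592 CPM in CAF-1 OFF, 169 to 205 in control and 229 to 298 in HOXA9 OFF, with Fcer1a at 0 in CAF-1 OFF and control. Of 5 megakaryocyte markers 3 had at least 1 CPM in every library, and the 5 summed to 36.7 to 74.3 CPM in CAF-1 OFF, 24.6 to 28 in control and 62.3 to 81.6 in HOXA9 OFF, with Gp1bb at 0 throughout. The part of such cells in the levels of the 42 was not tested. The sums of monocyte and of erythroid markers overlapped between CAF-1 OFF and control.

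**Figure D1:**
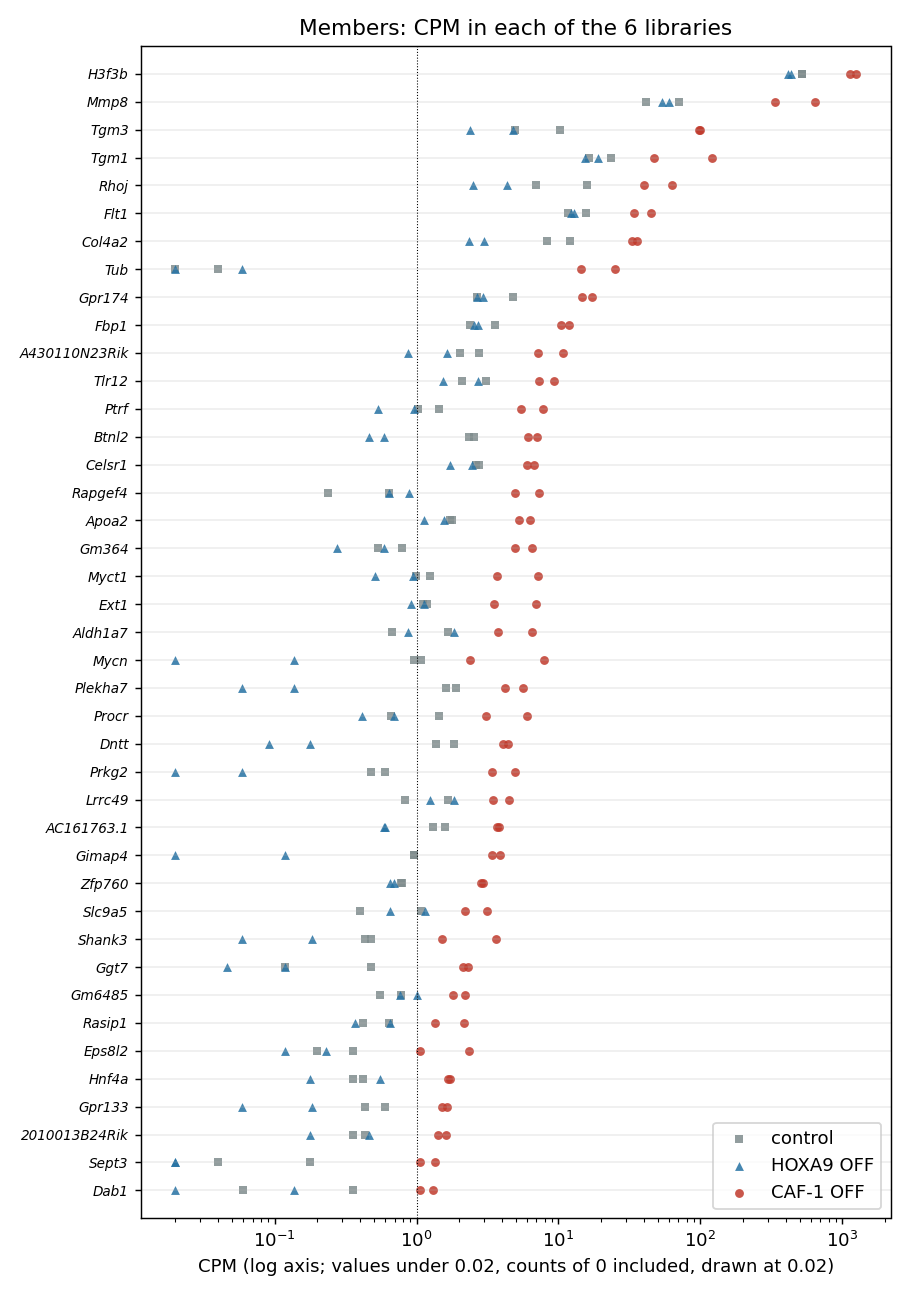
CPM (log axis) of 41 of the 42 genes, ordered by their mean in CAF-1 OFF, with 1 point per library: red circles are CAF-1 OFF, grey squares control and blue triangles HOXA9 OFF, and the dotted line marks 1 CPM. In every row the CAF-1 OFF points lie right of the others, as the choice of genes requires, while the HOXA9 OFF points range from beside the controls (Mmp8, Flt1) to far left of them (Mycn, Plekha7, Prkg2).

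The size of the increase varied widely. The ratio of the lower CAF-1 OFF to the higher control value was 2 to 3 in 27 genes, 3 to 5 in 9 and at least 5 in 6. Its median was 2.84, and the ratio of the group means had a median of 4.01. The CAF-1 OFF libraries lay within 1.5 times of each other in 28 genes. They were over 2 times apart in 4 genes, Mycn, Tgm1, Shank3 and Eps8l2, the last of which encodes an actin regulator related to EPS8. Of the 42, 19 were higher in the first CAF-1 OFF library and 23 in the second, so neither library led throughout. In the background of genes at 1 CPM or more, 51.8% were higher in the second.

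Tub stood apart from the rest. It encodes the tubby protein, which binds membrane lipids and is best known from neurons and from the obesity of mice that lack it. It had 276 and 481 reads in the CAF-1 OFF libraries, 1 and 0 in the controls and 0 and 1 in HOXA9 OFF. These reads correspond to 14.5 and 24.9 CPM in CAF-1 OFF, and to at most 0.059 CPM in each other library. The gene was thus close to absent outside CAF-1 OFF. Over both libraries the ratio of CAF-1 OFF to control was 828, with a 95% exact interval of 148 to 32734 that covers counting error only. The interval gives the precision of the ratio and is no test, since the same reads entered the choice. Tub lies on chromosome 7 at 116154339 to 116177974 (NCBIM37, the assembly called mm9), on the plus strand. Ric3 overlaps its end on the other strand and had at most 0.105 CPM in a library, and the next gene of higher coordinate, Lmo1, had 0.262 and 0.155 CPM in CAF-1 OFF and 0 in the other 4 libraries.

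The skin transglutaminases were among the most abundant of the 42. Both cross-link proteins of the cornified envelope of skin and hair. Tgm3 had 97.6 and 100 CPM in CAF-1 OFF against 10.2 and 4.95 CPM in control and 2.39 and 4.78 CPM in HOXA9 OFF. The means were 98.8 ± 1.68 CPM in CAF-1 OFF against 7.60 ± 3.75 CPM in control (SD, n = 2). Tgm1 had 47.5 and 120 CPM in CAF-1 OFF against 23.5 and 16.4 CPM in control and 19.1 and 15.4 CPM in HOXA9 OFF. Tgm3 was thus nearly equal in the CAF-1 OFF libraries, whereas Tgm1 differed between them and sat just inside the limit with a ratio of 2.02. Tgm3 lies on chromosome 2 at 129838085 to 129876135 (plus strand) and Tgm1 on chromosome 14 at 56318846 to 56332329 (minus strand). Their relative Tgm2, a transglutaminase of many tissues and of macrophages, was not among the 42. It had 43.4 and 37.5 CPM in CAF-1 OFF against 12.5 and 16.8 CPM in control and 843 and 793 CPM in HOXA9 OFF. Tgm2 rose when HOXA9 was off (5.89 ± 0.19 on the log2 scale, edgeR FDR 5.63e-05), and in CAF-1 OFF its log2 fold change of 1.48 ± 0.16 missed the edgeR threshold (FDR 0.0626) but passed that of DESeq2 (adjusted p = 2.93e-13). Both skin genes stood on a list of muscle, epithelial and hormone genes, of which 15 others, Tgm2 among them, were tested. In CAF-1 OFF all 15 had a positive log2 fold change, with a median of 1.48. Of the 12418 tested genes other than the 42, 6090 had a positive one. The 15 are those with enough reads for the test, which can favour genes raised in a group, so the count is a description. None passed the edgeR call (0 of 15, where 0.0241% of all genes were called higher), 9 were higher at an unadjusted p under 0.05 (6.48% of all genes) and DESeq2 called 1 (1.31% of all genes). In HOXA9 OFF edgeR called 4 of the 15 higher and 0 lower, against 13% and 8.97% of all genes.

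Mmp8, the collagenase that neutrophils store in their granules, had 335 and 645 CPM in CAF-1 OFF against 70.9 and 41.6 CPM in control and 54.0 and 60.3 CPM in HOXA9 OFF. It was the only late neutrophil gene of the list used here that met the rule. Of the other genes of that list, 18 could be tested. In HOXA9 OFF all 18 rose over control, where 13% of all genes did, with a median log2 fold change of 4.74, and the median of all genes other than the 42 was near 0. In CAF-1 OFF all 18 had a positive log2 fold change, with a median of 1.5, but 0 passed the edgeR call. Of the 12418 tested genes other than the 42, 6090 had a positive one, and the 18 were kept for having enough reads, which can favour raised genes. At an unadjusted p under 0.05 10 of the 18 were higher (6.48% of all genes were), and DESeq2 called 6 (1.31% of all genes). For example, S100a8, a calcium-binding protein of neutrophils, had 17.6 and 17.0 CPM in CAF-1 OFF against 2.54 and 2.38 CPM in control and 293 and 143 CPM in HOXA9 OFF. Mmp8 was the most abundant of the 7 neutrophil markers in CAF-1 OFF. The summed level of these 7 markers, Mmp8 included, was 367 to 671 CPM in CAF-1 OFF, 47.0 to 76.9 in control and 326 to 580 in HOXA9 OFF, and in CAF-1 OFF Mmp8, which the rule chose, made up most of it. The other 6 summed to 31.8 and 26.3 CPM in CAF-1 OFF against 6 and 5.43 CPM in control and 526 and 266 CPM in HOXA9 OFF, with Ly6g at or under 3 reads in CAF-1 OFF and control. The part of neutrophil-like cells in the Mmp8 difference was not tested, and in bulk RNA more such cells and more RNA per cell cannot be told apart.

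Other genes that make or modify the matrix were Col4a2 and Ext1. Col4a2, a collagen chain of basement membranes, had 32.9 and 35.8 CPM in CAF-1 OFF against 8.30 and 12.0 CPM in control and 2.99 and 2.36 CPM in HOXA9 OFF. Its partner Col4a1, which is read from the opposite strand beside it and overlaps it, had 25.9 and 62.4 CPM in CAF-1 OFF against 34.7 and 23.3 CPM in control and 9.89 and 8.97 CPM in HOXA9 OFF. The CAF-1 OFF and control values of Col4a1 overlapped (log2 fold change 0.60 ± 0.39, edgeR FDR 0.642), and Col4a1 was lower in HOXA9 OFF (-1.54 ± 0.41 on the log2 scale, edgeR FDR 0.0314), a call lost without the first control library (FDR 0.121) or without the first or second HOXA9 OFF library (0.101 and 0.118). Reads of an overlapping pair may be shared between them, as the strand setting of the counting is not given in the sources used here. Ext1, a polymerase of heparan sulfate chains, had 3.51 and 6.94 CPM in CAF-1 OFF against 1.11 and 1.19 CPM in control and 0.920 and 1.12 CPM in HOXA9 OFF. Of the other matrix and matrix protease genes on the list, 22 were tested. In CAF-1 OFF edgeR called 0 of them (0.0241% of all genes were called higher). At an unadjusted p under 0.05 9 were higher and 1 lower (6.48% and 4.2% of all genes), and DESeq2 called 1 higher (1.31%). In HOXA9 OFF edgeR called 5 higher and 5 lower, against 13% and 8.97% of all genes.

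H3f3b was by far the most abundant of the genes. It encodes histone H3.3, a variant that is placed on chromatin outside replication by other chaperones than CAF-1. It had 1127 and 1258 CPM in CAF-1 OFF against 519 and 522 CPM in control and 434 and 417 CPM in HOXA9 OFF. H3f3a, which encodes the same protein, had 16.3 and 13.5 CPM in CAF-1 OFF against 14.2 and 14.4 CPM in control, and its difference was within error (log2 fold change 0.06 ± 0.19, edgeR FDR 0.935). The 2 genes have many near-identical copies in the genome, so reads that align to several places are not counted and both levels are uncertain. H1fx, the linker histone gene that the choice of symbols removed, had 141 and 128 CPM in CAF-1 OFF against 40.8 and 40.3 CPM in control and 24.5 and 17.6 CPM in HOXA9 OFF. Of the 9 other replication-independent histone genes tested, 0 passed the edgeR call in CAF-1 OFF, 1 was higher at an unadjusted p under 0.05, and DESeq2 called 1, against 0.0241%, 6.48% and 1.31% of all genes.

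Among regulators, Mycn, a MYC family transcription factor of embryonic and neural cells, had 7.92 and 2.38 CPM in CAF-1 OFF against 0.953 and 1.07 CPM in control and 0.138 and 0 CPM in HOXA9 OFF. Its CAF-1 OFF libraries differed more than 3-fold. Hnf4a, a nuclear receptor that controls liver and gut genes, was nearly equal in the CAF-1 OFF libraries, at 1.68 and 1.71 CPM, against 0.358 and 0.417 CPM in control. The zinc finger gene Zfp760 had 2.83 and 2.95 CPM in CAF-1 OFF against 0.795 and 0.775 CPM in control and 0.690 and 0.649 CPM in HOXA9 OFF.

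Gimap4, Dntt, Gpr174 and Btnl2 are best known from lymphocytes, and each had at most 17.2 CPM in a library. Gimap4, a GTPase of T cells, had 3.41 and 3.89 CPM in CAF-1 OFF against 0.953 and 0.954 CPM in control and 0 and 0.118 CPM in HOXA9 OFF. Dntt, the enzyme that adds nucleotides at antigen receptor joints, had 4.41 and 4.04 CPM in CAF-1 OFF against 1.83 and 1.37 CPM in control and 0.092 and 0.177 CPM in HOXA9 OFF. In both genes every CAF-1 OFF library lay over the controls and every HOXA9 OFF library under them. Gpr174, a lysophosphatidylserine receptor of lymphocytes, had 17.2 and 14.6 CPM in CAF-1 OFF against 4.77 and 2.68 CPM in control and 2.94 and 2.66 CPM in HOXA9 OFF. Btnl2, a butyrophilin-like inhibitor of T cells, had 6.08 and 7.05 CPM in CAF-1 OFF against 2.54 and 2.33 CPM in control and 0.460 and 0.590 CPM in HOXA9 OFF. Of the other lymphoid genes on the list, 22 were tested. In CAF-1 OFF edgeR called 0 of them, 6 were higher at an unadjusted p under 0.05 (6.48% of all genes were), and DESeq2 called 2 (1.31% of all genes). In HOXA9 OFF edgeR called 3 higher and 10 lower, against 13% and 8.97% of all genes, and 11 of the 22 had a positive log2 fold change. Rag1, which opens antigen receptor genes for joining, had 3.41 and 4.04 CPM in CAF-1 OFF against 2.74 and 6.14 CPM in control. The defining T cell marker Cd3e was at 0 in all 6 libraries, and the summed T and B cell markers were 7.62 to 11.8 CPM in CAF-1 OFF, 3.46 to 9.96 in control and 3.45 to 4.90 in HOXA9 OFF. The innate receptor Tlr12 had 9.23 and 7.25 CPM in CAF-1 OFF against 3.10 and 2.09 CPM in control and 2.71 and 1.53 CPM in HOXA9 OFF.

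Of the genes known from vessel walls and stem cells, Flt1, a receptor for VEGF, had 34.1 and 44.8 CPM in CAF-1 OFF against 15.6 and 11.6 CPM in control and 12.3 and 12.9 CPM in HOXA9 OFF. Kdr, another VEGF receptor, was listed at 0 in every library. Of the 14 other angiogenic and growth factor genes tested, edgeR called 0 in CAF-1 OFF, 4 were higher and 1 lower at an unadjusted p under 0.05 (6.48% and 4.2% of all genes), and DESeq2 called 1 (1.31%). In HOXA9 OFF edgeR called 3 of the 14 higher and 2 lower, against 13% and 8.97% of all genes. Rhoj, a small GTPase of endothelial cells, had 40.1 and 63.2 CPM in CAF-1 OFF against 16 and 6.92 CPM in control and 4.33 and 2.48 CPM in HOXA9 OFF. Procr, the endothelial protein C receptor, had 5.98 and 3.11 CPM in CAF-1 OFF against 1.43 and 0.656 CPM in control and 0.690 and 0.413 CPM in HOXA9 OFF. Myct1 and Rasip1, both first described in endothelial or blood-forming cells, had mean levels of 5.43 ± 2.48 and 1.75 ± 0.568 CPM in CAF-1 OFF and of 1.12 ± 0.183 and 0.526 ± 0.154 CPM in control (SD, n = 2). The endothelial marker Cdh5 had at most 1 read in each library, and Col3a1, a marker of fibroblasts, likewise. Pecam1, which myeloid cells also carry, was the only abundant one of these 4 fibroblast and endothelial markers, at 289 and 315 CPM in CAF-1 OFF against 244 and 242 CPM in control. Of the other stem and progenitor genes, 18 were tested, and edgeR called 0 in CAF-1 OFF. At an unadjusted p under 0.05 4 were higher and 1 lower (6.48% and 4.2% of all genes), and DESeq2 called 1 higher (1.31%). In HOXA9 OFF it called 1 of these 18 higher and 12 lower, against 13% and 8.97% of all genes.

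Apart from Tub, the genes of nerve cells had low levels. Shank3, a scaffold of synapses, had 3.62 and 1.5 CPM in CAF-1 OFF against 0.437 and 0.477 CPM in control and 0.184 and 0.059 CPM in HOXA9 OFF. Dab1, an adaptor of reelin signalling, had 1.05 and 1.30 CPM in CAF-1 OFF against 0.358 and 0.0596 CPM in control and 0.138 and 0 CPM in HOXA9 OFF. Sept3, a septin of nerve cells, had 1.05 and 1.35 CPM in CAF-1 OFF and no read in HOXA9 OFF. Its controls had 4 reads in all against 46 in CAF-1 OFF. Rapgef4, which activates Rap proteins in answer to cyclic AMP, had 4.93 and 7.25 CPM in CAF-1 OFF against 0.636 and 0.238 CPM in control and 0.644 and 0.885 CPM in HOXA9 OFF. It was the only gene of the 42 with both HOXA9 OFF libraries over both controls. Of the 9 other neuronal genes on the list that were tested, 8 had a log2 fold change over 0 against control in CAF-1 OFF (median of the 9, 1.00). Of the 12418 tested genes other than the 42, 6090 did, and the 9 were kept for having enough reads, which can favour raised genes. Of these 9, edgeR called 0 in CAF-1 OFF, 2 were higher at an unadjusted p under 0.05, and DESeq2 called 0, against 0.0241%, 6.48% and 1.31% of all genes.

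Genes of metabolism were Fbp1, Apoa2, Aldh1a7 and Ggt7. Fbp1, an enzyme of gluconeogenesis, had 11.8 and 10.5 CPM in CAF-1 OFF against 3.58 and 2.38 CPM in control and 2.53 and 2.71 CPM in HOXA9 OFF. Apoa2, a protein of high-density lipoprotein, had 6.29 and 5.29 CPM in CAF-1 OFF against 1.79 and 1.73 CPM in control and 1.56 and 1.12 CPM in HOXA9 OFF. Fbp1 and Apoa2 were at least 2 times over control in each CAF-1 OFF library and overlapped or lay below it in HOXA9 OFF. Aldh1a7, an aldehyde dehydrogenase with a close relative in Aldh1a1, and Ggt7, of the gamma-glutamyltransferase family, had 5.15 ± 1.95 and 2.22 ± 0.13 CPM in CAF-1 OFF against 1.17 ± 0.703 and 0.298 ± 0.253 CPM in control (SD, n = 2). Dgat2, which makes triglycerides, was called higher in CAF-1 OFF but was no member. It had 202 and 237 CPM in CAF-1 OFF against 32.7 and 31.1 CPM in control and 81.8 and 54.1 CPM in HOXA9 OFF, and it rose in both conditions (log2 fold change 2.79 ± 0.22, edgeR FDR 0.0198 in CAF-1 OFF and 1.17 ± 0.21, FDR 0.00752 in HOXA9 OFF). Its call in CAF-1 OFF was lost without the second CAF-1 OFF library (FDR 0.0621) and without the first or the second control library (0.161 and 0.141). Of the 14 triglyceride and gluconeogenesis genes tested other than Fbp1, Dgat2 was the 1 called in CAF-1 OFF by edgeR, and DESeq2 called 1 higher. Over all genes 0.0241% and 1.31% were called higher. Of the 14, 7 had a positive log2 fold change, the median was 0.01, and 3 were higher and 2 lower at an unadjusted p under 0.05 (6.48% and 4.2% of all genes). In HOXA9 OFF edgeR called 4 higher and 2 lower, against 13% and 8.97% of all genes.

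The signalling and cell contact genes were Prkg2, Ptrf, Celsr1, Plekha7, Gpr133 and Slc9a5. Prkg2, a cyclic GMP-dependent kinase, had 3.41 and 4.97 CPM in CAF-1 OFF against 0.596 and 0.477 CPM in control and 0 and 0.059 CPM in HOXA9 OFF. Ptrf, the caveola protein cavin-1, had 7.76 and 5.49 CPM in CAF-1 OFF against 1.03 and 1.43 CPM in control and 0.966 and 0.531 CPM in HOXA9 OFF. Plekha7, a protein of adherens junctions, had 5.67 and 4.2 CPM in CAF-1 OFF against 1.91 and 1.61 CPM in control and 0.138 and 0.059 CPM in HOXA9 OFF. Prkg2 and Plekha7 were close to 0 in HOXA9 OFF. Celsr1, a cadherin of planar cell polarity, had 6.36 ± 0.498 CPM in CAF-1 OFF against 2.68 ± 0.0851 CPM in control. Gpr133, an adhesion receptor, and Slc9a5, a sodium-proton exchanger, had 1.56 ± 0.0874 and 2.68 ± 0.677 CPM in CAF-1 OFF against 0.517 ± 0.113 and 0.735 ± 0.478 CPM in control (SD, n = 2). The remaining genes have no well-known role or an uncertain identity. Gm364 had 6.5 and 4.92 CPM in CAF-1 OFF against 0.795 and 0.537 CPM in control, and A430110N23Rik, 2010013B24Rik and Lrrc49 had mean levels of 8.95, 1.51 and 3.96 CPM in CAF-1 OFF. AC161763.1 is annotated as a miRNA gene of 71 bases and Gm6485 as a pseudogene of 439 bases, and reads of other transcripts could be counted to them.

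The rule set only an upper limit in HOXA9 OFF, and below it the genes spread widely. Both HOXA9 OFF libraries lay under both controls in 22 of the 42, where 43.7% of the 10902 background genes did so. They overlapped the controls in 19 and lay over them in 1. The mean HOXA9 OFF level was furthest under the control mean, at 0.0841 of it or less, in 6 genes, Sept3, Prkg2, Plekha7, Gimap4, Mycn and Dntt. In the fit across 12460 genes, in which all 42 were tested, 9 of the 42 were called lower in HOXA9 OFF, where 8.97% of all genes were, and 0 were called higher, where 13% of all genes were. Without the first control or the first HOXA9 OFF library 5 were called lower, and without the second HOXA9 OFF library 6 were. This contrast entered the choice of genes, so the counts are a description. Between CAF-1 OFF and HOXA9 OFF, 9.56% of all genes were called higher in CAF-1 OFF, and the calls of the 42 are not counted because the rule bounds that difference.

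**Figure D2:**
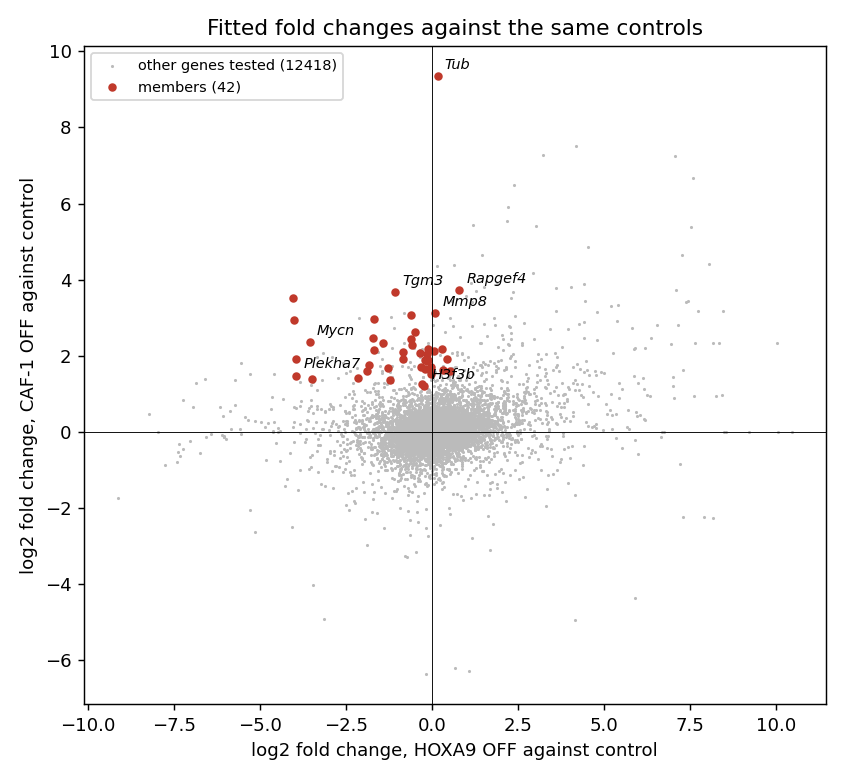
Fitted log2 fold changes of 12460 genes, HOXA9 OFF against control on the horizontal axis and CAF-1 OFF against control on the vertical axis, with the 42 genes in red and 7 of them named. The fold changes share the same control libraries, so the picture is a map of values and not of a relation; Tub is highest at 9.35, and the lowest value in HOXA9 OFF among the 42 is -4.03, while other genes reach further left.

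The fit called few genes in CAF-1 OFF. Of 12460 genes it called 3 higher than control (0.0241%) and 1 lower (0.00803%), where a call needed an FDR under 0.05 and a change of 1.5-fold or more. The 3 were Tub, H3f3b and Dgat2, so 2 of the 42 passed. Without the second CAF-1 OFF library, or without either control library, 0 of the 42 did, and without the first CAF-1 OFF library 3 did (H3f3b, Mmp8 and Tub), as did 3 without either HOXA9 OFF library (H3f3b, Tgm3 and Tub). As the rule used this contrast, nothing is read from these counts. Over all genes DESeq2 called 163 higher (1.31%) and 29 lower (0.233%). All 42 fitted log2 fold changes were positive, from 1.20 to 9.35, which the choice of genes fixes.

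The rule was also applied to 1 library per group, and the genes it found were looked up in the other libraries. With the libraries numbered 1 alone, 266 genes met it, 39 of the 42 among them. In the libraries numbered 2, 66 of the 266 were at least 2 times over control, but for the 39 the choice on both libraries fixes this. Of the other 227 genes, 125 (55.1%) were higher than control in the libraries numbered 2, where 48.4% of 11066 genes were, 27 (11.9%) were at least 2 times over it, where 3.21% were, and 13 (5.73%) also kept the HOXA9 OFF limit, where 1.1% did. In the reverse direction 208 genes were chosen, 38 of the 42 among them. Of the other 170, 111 (65.3%) were higher than control in the libraries numbered 1, where 49.6% of 11184 genes were, 32 (18.8%) were at least 2 times over it, where 3.16% were, and 21 (12.4%) also kept the HOXA9 OFF limit, where 1.73% did. The 227 and 170 genes are what is left after the 42, chosen on both libraries, are taken out, so that choice also shapes their shares. The genes were not matched on level either. These shares are a description and no independent check. The same rule turned round, for genes lower in CAF-1 OFF and not to the same degree in HOXA9 OFF, found 1 gene of 10834 (0.00923%), Phf21b. It had 0.472 and 0.725 CPM in CAF-1 OFF against 2.46 and 1.73 CPM in control and 1.2 and 1.77 CPM in HOXA9 OFF. Its HOXA9 OFF mean was 0.708 of the control mean.

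The limits of the rule cut through a continuous range. Just inside the 2-fold limit were Tgm1 at 2.02, Slc9a5 at 2.05 and Lrrc49 at 2.07, and just outside were Dlg2, which printed as 2 after rounding, Gm16619 at 1.98 and Tanc1 at 1.96. Dlg2, a synaptic scaffold, had 107 and 95.9 CPM in CAF-1 OFF against 48.0 and 35.9 CPM in control and 18.2 and 12.0 CPM in HOXA9 OFF. Just inside the 1 CPM limit were Dab1, Eps8l2 and Sept3, all at 1.05 CPM, and just outside Myo6 and Rph3al at 0.984 and Cdh3 at 0.881. On the HOXA9 OFF limit Tub was just inside at 1.49, a value that rests on 1 read in a HOXA9 OFF and 1 read in a control library, followed by Rapgef4 at 1.39 and Hnf4a at 1.32. Spocd1 at 1.53, 4932438H23Rik at 1.71 and Tmem217 at 1.76 were just outside.

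The genes were spread over the genome. All 42 were matched to 1 gene each of the GENCODE annotation of NCBIM37 and lay on 18 chromosomes. No pair was adjacent or within 100 kb. The closest pair, Ggt7 and Procr on chromosome 2, was 232880 bases apart. Of the 42, 39 (92.9%) were protein coding, against 95.1% of expressed genes, and their median gene length was 23583 bases, against 21778.

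The genes beside them mostly had ratios near 1. Of the nearest genes on either side, 35 were expressed, and the ratio of their mean CAF-1 OFF to mean control CPM had a median of 0.992, from 0.743 to 3.25. Both CAF-1 OFF libraries lay over both controls in 8 (22.9%), where 19.6% of 11392 expressed genes did. The highest value was Mmp27, 2910 bases beyond Mmp8, with 1.26 and 1.45 CPM in CAF-1 OFF against 0.358 and 0.477 CPM in control and 0.874 and 0.944 CPM in HOXA9 OFF, and it was the only one of them whose lower CAF-1 OFF value was 2 times its higher control value or more. All the other expressed ones were at 1.5 or less. Of the 49 flanking genes under the expression limit, 2 with reads in control were also at 2 times or more. Fbp2, a relative of Fbp1 that lies 6353 bases from it, had 39 and 12 reads in CAF-1 OFF and 2 and 0 control reads, and the pseudogene Gm15707 beside 2010013B24Rik had 18 and 12 reads against 6 and 2. Gimap9 and Gimap6, which flank Gimap4 and belong to the same family, overlapped between CAF-1 OFF (66.0 and 47.2 CPM, 41.1 and 29.0 CPM) and control (44.6 and 62.7 CPM, 25.7 and 32.8 CPM). Unk, 2360 bases from H3f3b, had 43.6 and 51.2 CPM in CAF-1 OFF against 52.2 and 49.3 CPM in control.

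**Figure D3:**
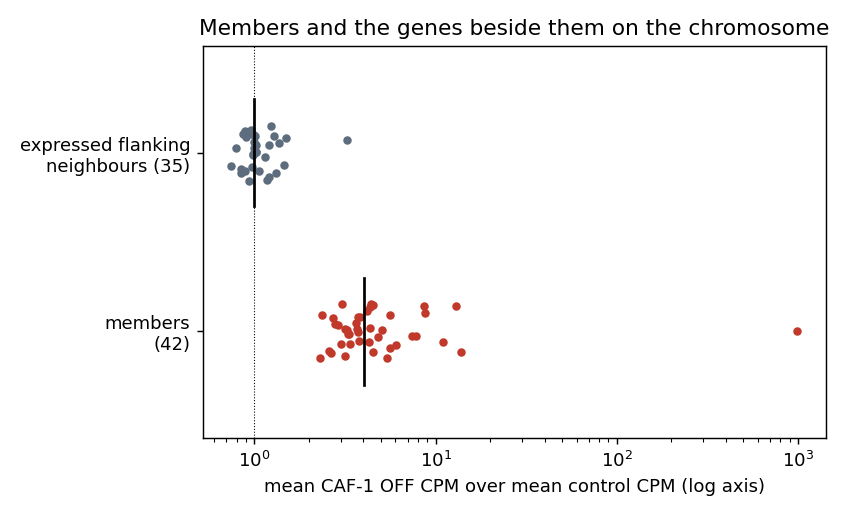
Mean CAF-1 OFF CPM over mean control CPM (log axis) for the 42 genes (red) and for the 35 expressed genes that flank them (grey); each point is a gene, spread vertically only to be visible, and black bars are medians, 4.01 and 0.992. The flanking genes gather around 1, and Mmp27 at 3.25 is the only one among the range of the chosen genes, which starts at 2.29 by choice.

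Promoter sequence was not used by the rule. RefSeq windows of 300 bases (250 before and 50 after a transcript start, build GRCm38.p6) were held for 31 of the 42 genes. The bases before the annotated gene start are printed for Tub and Tgm3, which had the highest ratios of the lower CAF-1 OFF to the higher control value, for Mmp8, the most abundant gene after H3f3b, and for Flt1, so that CpG-rich (Tub, Flt1) and CpG-poor (Tgm3, Mmp8) windows are both seen. Capitals mark the motifs searched, on either strand, where they lie wholly within the printed bases. For the ETS family these were CCGGAA, the core, and CCGGAAGT, as bound by ELF1. The motif of the myeloid ETS factor PU.1 was GAGGAAGT, that of C/EBP factors was TTGCNNAA and that of cyclic AMP response factors (CRE) was TGACGTCA. For AP-1 factors TGANTCA was used. GATA factors were searched by AGATAA. For RUNX factors the letters were TGTGGT. The letters of the TATA box were TATAAA. The longer ETS motif contains the core, and the others can overlap. Coordinates are NCBIM37, found by exact match, and sequences run 5′ to 3′ on the strand of the gene.
Tub, chr7:116154144-116154338, plus strand: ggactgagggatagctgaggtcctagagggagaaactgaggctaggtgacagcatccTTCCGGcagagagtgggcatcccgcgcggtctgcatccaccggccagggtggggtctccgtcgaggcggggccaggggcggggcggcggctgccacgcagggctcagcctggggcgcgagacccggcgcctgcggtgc
Tgm3, chr2:129837826-129838075, plus strand: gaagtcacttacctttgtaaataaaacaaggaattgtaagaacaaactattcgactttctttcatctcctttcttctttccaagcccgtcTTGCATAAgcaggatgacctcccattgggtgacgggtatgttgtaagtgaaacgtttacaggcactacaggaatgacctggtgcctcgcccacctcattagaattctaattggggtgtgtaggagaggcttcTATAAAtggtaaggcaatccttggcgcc
Mmp8, chr9:7558179-7558428, plus strand: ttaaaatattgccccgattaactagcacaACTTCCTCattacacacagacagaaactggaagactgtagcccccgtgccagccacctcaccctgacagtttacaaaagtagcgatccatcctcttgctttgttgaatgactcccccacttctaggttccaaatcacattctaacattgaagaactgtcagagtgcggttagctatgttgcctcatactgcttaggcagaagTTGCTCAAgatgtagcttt
Flt1, chr5:148537588-148537837, minus strand: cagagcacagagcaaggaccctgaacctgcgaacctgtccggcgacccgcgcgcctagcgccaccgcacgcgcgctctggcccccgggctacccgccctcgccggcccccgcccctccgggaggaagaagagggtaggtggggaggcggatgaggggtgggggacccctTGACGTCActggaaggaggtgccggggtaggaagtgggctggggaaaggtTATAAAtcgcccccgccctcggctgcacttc

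The promoter windows of the genes held fewer CpG dinucleotides than those of expressed genes. The whole windows of Tub and Flt1 held 34 and 29 CpG, and those of Tgm3 and Mmp8 held 7 and 4. The median over the 31 genes was 12, against 22 over 8947 expressed genes, 17 over the 1490 genes at 1 to 10 CPM in both CAF-1 OFF libraries and 8 over all 27025 genes with a window. In 9 of the 31 (29%) there were at most 5 CpG, as in 7.41% of expressed genes, 16.3% of genes at 1 to 10 CPM and 41.8% of all genes. The difference was smaller when the comparison was kept to genes at 1 to 10 CPM, a comparison chosen after seeing the data. That set is only nearer in level, since 10 of the 42 had at least 10 CPM in both CAF-1 OFF libraries. It was not matched on control level.

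The ETS core was found in 5 of the 31 genes (16.1%), in 33.3% of expressed genes, 24.8% of those at 1 to 10 CPM and 16.7% of all genes. The 5 were Tub, Dab1, Ggt7, Lrrc49 and Zfp760. The longer ETS motif was found in 2 genes (6.45%), against 10% of expressed genes, 5.77% of those at 1 to 10 CPM and 4.31% of all genes, so the order turned with the comparison set. The PU.1 motif was found in 3 genes (9.68%), against 3.98%, 3.56% and 3.69% of the same sets, and the C/EBP motif in 6 (19.4%), against 10.2%, 12.3% and 12.2%. TATAAA was found in 7 genes (22.6%), against 8.13% of expressed genes, 9.33% at 1 to 10 CPM and 15.7% of all genes. These letters were counted at any place of the window and on either strand. The match began at bases 218 to 224 in Flt1, H3f3b, Myct1 and Tgm3, but at 7 in Aldh1a7 and 39 in Apoa2. In Mmp8 it began at 248 on the other strand, across the end of the printed bases. GATA was found in 6 (19.4%), against 7.69%, 10.7% and 12.7%. RUNX was found in 6 (19.4%), against 15.4%, 19% and 18.9%, and AP-1 in 3 (9.68%), against 6.27%, 7.92% and 8.97%. CRE was found in 1, Flt1 (3.23%), against 3.77%, 3.22% and 2.03%. With 31 genes, each share rests on few genes, and a match of letters is not a bound site.

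**Figure D4:**
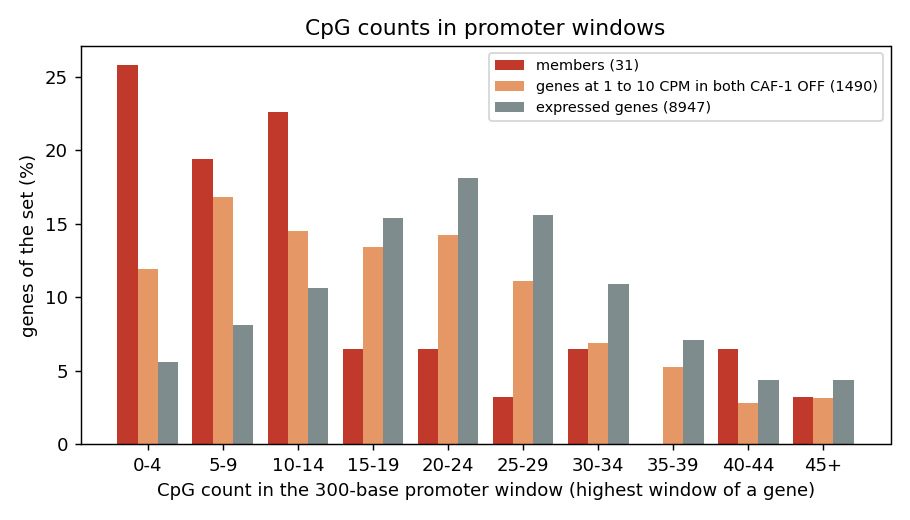
Share of genes (vertical axis, %) by the CpG count of the 300-base promoter window, in bins of 5 and with the highest window of each gene, for the 31 of the chosen genes with a window (red), the 1490 genes at 1 to 10 CPM in both CAF-1 OFF libraries (orange) and 8947 expressed genes (grey). The red bars are highest at under 15 CpG, and the grey bars between 15 and 34.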

How the data were processed

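Total RNA of 6 samples was sequenced in bulk. The authors used STAR to align reads to mouse mm9 and HTSeq to count them over genes, and the deposited values are raw counts per gene symbol, with 5 tally lines that were kept out of all sums. The annotation and strand setting of the counting are not given in the sources used here, and each count carries counting error only in the intervals given, since PCR copies of a molecule are counted apart.

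Groups and replicate numbers came from the sample titles. CPM was computed over the sum of gene rows, with 3 counts equal to 0.119 to 0.179 CPM. The members and the gene lists were chosen with earlier results of these data known. The fit was the edgeR 4.0.16 quasi-likelihood test (R 4.3.3, limma 3.58.1) on 12460 genes kept by filterByExpr, with TMM scaling, 1 mean per group and all 6 libraries, with calls at an FDR (Benjamini-Hochberg) under 0.05 and a change of 1.5-fold or more. DESeq2 1.42.0, its size factors, no filter, a replicate block and fits without each library were alternatives, and the script was tested on simulated counts. P-values measure the spread between 2 libraries a group, which may be technical.

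Expressed means at least 1 CPM in both libraries of a group. Genes were named by rule: the 15 largest ratios, the 10 most abundant, all on a list, those near a limit, Chaf1b, and list genes called in CAF-1 OFF. The others, among them the relatives, neighbours and remaining members, were chosen after their values were seen. Roles were assigned afterwards, for order only. Gene positions came from GENCODE for NCBIM37 and promoter windows from RefSeq. Values of 1 member are not reported here.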

Additional observations from a re-analysis of the deposited data

Results flagged for a closer look

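Reads that fell in no annotated gene, which enter no comparison above, were 8.05 per 100 gene reads on average in HOXA9 OFF, above both control libraries (6.867 and 7.15). The CAF-1 OFF libraries had 5.946 and 7.303, on both sides of the controls. Groups of 2 libraries were not tested for outliers.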

How the results depend on the processing

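The number of genes that met the rule followed its limits. It was 112 at a ratio of 1.5, 15 at a ratio of 3, 71 at a minimum of 0.5 CPM, 16 at 5 CPM and 97 with no HOXA9 OFF limit, and 41 with TMM-scaled library sizes, where Tub was lost. Leaving out 1 library gave 46 to 125. It was 125 without the first and 117 without the second CAF-1 OFF library, and 79 without the second control library. The mirrored rule gave 2 genes under TMM scaling and 3 to 75 without 1 library.

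The calls in CAF-1 OFF against control were 4, 2 with a replicate block, 192 with DESeq2, 378 with no expression filter and 0 to 10 without 1 library; they were 0 without the second CAF-1 OFF or the first control library, 1 without the second control, 8 without the first CAF-1 OFF and 10 without either HOXA9 OFF library. The numbers were not shown to pair the libraries (correlation of deviations -0.178 for control and CAF-1 OFF, 0.456 for control and HOXA9 OFF, 0.0329 for CAF-1 OFF and HOXA9 OFF); a crossed replicate block, added after seeing the data, gave 71 calls. The replicate block gave 2680 calls for HOXA9 OFF against control and 2684 for CAF-1 OFF against HOXA9 OFF, and a median log2 fold change of the 42 genes of 1.97 and -0.50, and it called 1 of them (Tub) in CAF-1 OFF against control, where Chaf1b and Dgat2 then missed the threshold (FDR 0.0562 for each). In that contrast, which the choice of genes used, 2 of the 42 were called, 21 by DESeq2, 34 with no expression filter and 13 with the crossed replicate block, and nothing is read from these counts. Calls without 1 library ranged from 1602 (second control) to 2840 for HOXA9 OFF against control, 2740 with all, with 1750 without the first HOXA9 OFF library, and from 1711 (first HOXA9 OFF) to 2718 for CAF-1 OFF against HOXA9 OFF, 2755 with all. The median log2 fold change of the 42 genes was 2.00 in CAF-1 OFF (1.85 to 2.11 without 1 library) and -0.52 in HOXA9 OFF (-0.67 to -0.26). A lone library in a group was assumed to vary like the other groups. The causes were not tested.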
